A study of Zea mays with 18 samples.

Results

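Untreated first leaves were compared with untreated shoots in seedlings of Zea mays inbred line B73, a reference line of maize. The comparison covers every Zm00001d gene model and every zma-MIR microRNA (miRNA) gene with at least 1 RPKM in control leaves or in control shoots. RPKM is a read number corrected for the length of a feature and for how deeply a library was sequenced. By that rule 24253 of 43484 gene models and 54 of 154 miRNA genes were members, 24307 of the 45260 features listed in all. The first leaves form one group, with 3 control samples. The shoots, collected as stem, apex and coleoptile together, form the other, also with 3 control samples. All seedlings germinated for 3 days in the dark at 25°C and then grew for 48 h in nutrient solution. The same organs, and primary roots, were also sampled from seedlings given 1 nM epibrassinolide (EBL), a brassinosteroid hormone, and from control roots, with 3 samples in each group. PolyA RNA was sequenced, and the table holds 1 RPKM value per organ and treatment.

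The first leaf of a grass seedling is a blade that takes up photosynthesis, in maize by the C4 pathway, in which mesophyll and bundle sheath cells share carbon fixation. The shoot sample joins very different tissues: a dividing apex with its meristem, an elongating stem, and the coleoptile, the sheath that protects the emerging leaves. MiRNA genes are transcribed into long polyadenylated precursors, and the short RNAs cut from these lower the transcripts of target genes, many of which encode transcription factors. The libraries therefore read the precursors, not the mature miRNAs.

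A difference is given as log2 of (leaf + 1) over (shoot + 1), so that a positive value means higher in leaves, and a pseudocount of 1 RPKM understates differences of low features. Each value is the authors' single value for a group, so no replicate error, interval or test can be attached to any difference, and the depth is unknown. A feature was called when its difference reached 1 in size, which is 2-fold on this scale. A value of exactly 0 in such a table can be a failed estimate, so features listed at 0 in one organ are described apart and get no fold. The gene models carry no names in the sources used here and could not be tied to known genes. For that reason the labelled organs could not be checked against marker genes, and miRNA genes are the only members given by name. In bulk samples, fewer cells of a type and less RNA per cell cannot be told apart.

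Leaves and shoots differed widely, and gene models called lower in leaves outnumbered those called higher. Of 24006 gene models above 0 in both columns, 3746 were at least 2-fold higher in leaves (15.6%) and 7738 at least 2-fold lower (32.2%), together 47.8%. Within 2-fold stood 12522. At 8-fold the numbers were 478 higher (1.99%) and 763 lower (3.18%), and at 32-fold they were 30 higher and 68 lower. The median difference over all gene models was -0.51, so the typical gene model itself stood lower in leaves than in shoots.

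That excess of lower gene models rested on the scaling. After median-ratio scaling, which sets the typical gene model equal in the 2 organs and so raises every leaf value relative to shoots, 5699 were higher in leaves (23.7%) and 4477 lower (18.6%). Gene models higher in leaves were then 56.0% of all those called, against 32.6% by the authors' RPKM. At 8-fold the numbers were 828 higher and 456 lower. The balance of higher and lower calls therefore turned with the scaling.

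**Figure D1:**
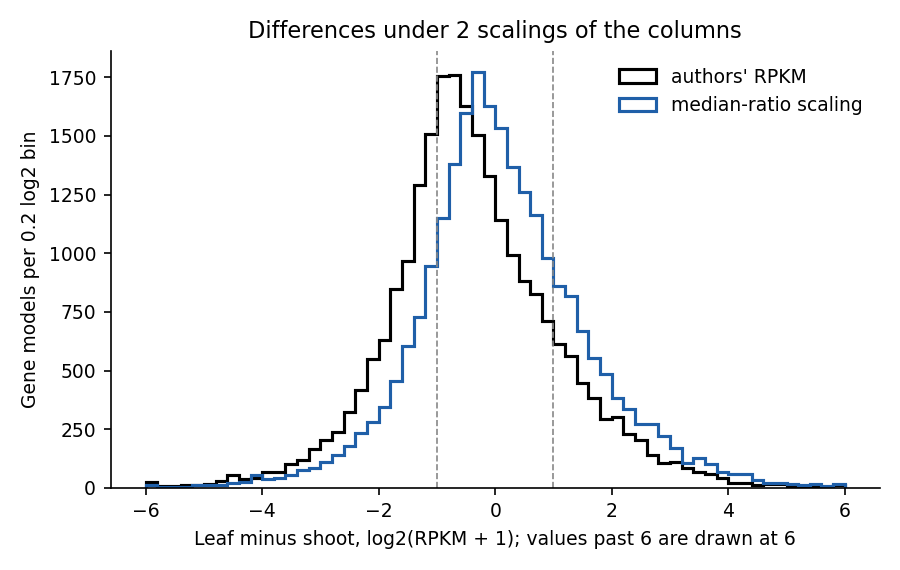
Number of gene models per bin of 0.2 (log2) of the difference of control leaves minus control shoots, on the log2(RPKM + 1) scale, for the authors' RPKM and after median-ratio scaling; dashed lines mark 2-fold. The authors' values centre at -0.51 and the rescaled ones at 0, and each curve has tails on both sides.

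The difference changed with level. Among the 222 gene models with a mean of at least 500 RPKM over the 2 organs, 134 were at least 2-fold higher in leaves (60.4%) and 51 lower (23.0%), with a median difference of 2.08. In the band from 100 to 500 RPKM, 360 of 1246 were higher and 455 lower, with a median of -0.31. From 5 to 20 RPKM, which held the most gene models, 1151 of 9384 were higher and 3282 lower, with a median of -0.61. By the authors' values, higher calls outnumbered lower ones only in the top of the 6 bands.

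**Figure D2:**
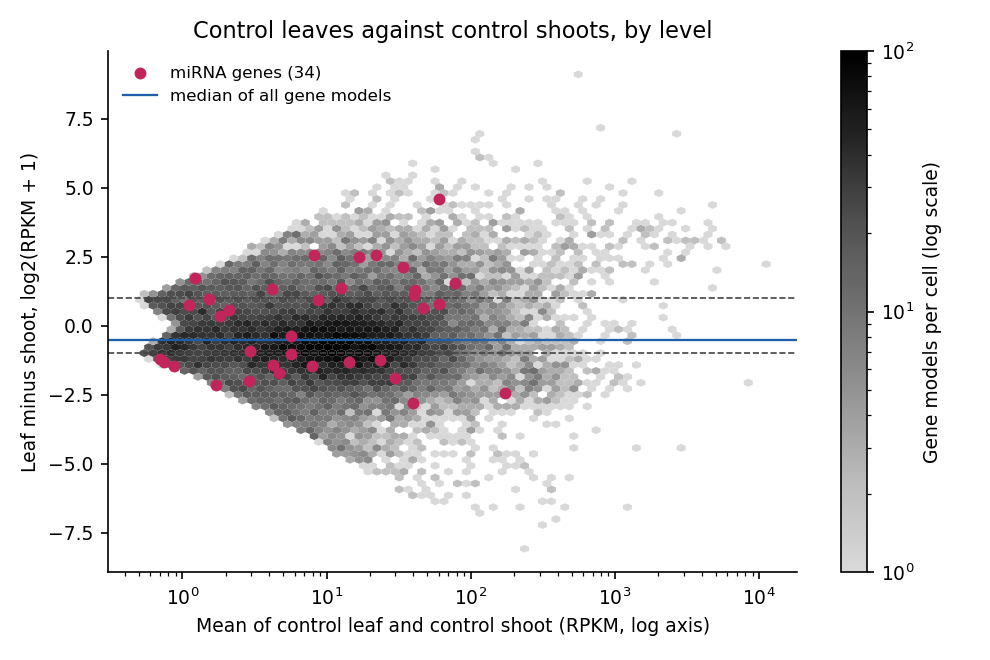
Difference of control leaves minus control shoots (log2(RPKM + 1)) against the mean RPKM of both columns (log axis), with gene models as shaded cells and the 34 miRNA genes above 0 in both as points; dashed lines mark 2-fold and the solid line the median of -0.51. The cloud lies below 0 at most levels and bends above it at the right, where 134 of 222 gene models at 500 RPKM or more are at least 2-fold higher in leaves.

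A small number of transcripts made up much of the leaf total. In leaves 317 gene models carried 50% of the summed RPKM of all gene models, against 1130 in shoots, and 1092 did so in control roots. The 10 most abundant took 9.78% in leaves and 4.65% in shoots, and the 100 most abundant 35.9% and 16.2% in the same order. At 1000 RPKM or more stood 120 gene models in leaves and 51 in shoots, but at 10 RPKM or more 10245 in leaves and 12955 in shoots. At 100 RPKM or more the numbers were close, at 1399 in leaves and 1469 in shoots. By the authors' values, leaves therefore held more very abundant transcripts and fewer of moderate level. The counts at these fixed levels were not repeated under another scaling. The columns also differ in their totals, since the gene models summed to 1006945 RPKM in leaves and 856063 in shoots, and non-coding RNA features with ENSRNA identifiers took 21.5% of all RPKM in leaves and 8.24% in shoots. With both organs set to the same gene-model total, the median difference was -0.71. With the totals taken without the 100 most abundant gene models of each organ, it was -0.37, with 4219 higher and 6620 lower. Beyond these rescalings, the part of the totals and of the ENSRNA features in the downward shift of the typical gene model was not tested.

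**Figure D3:**
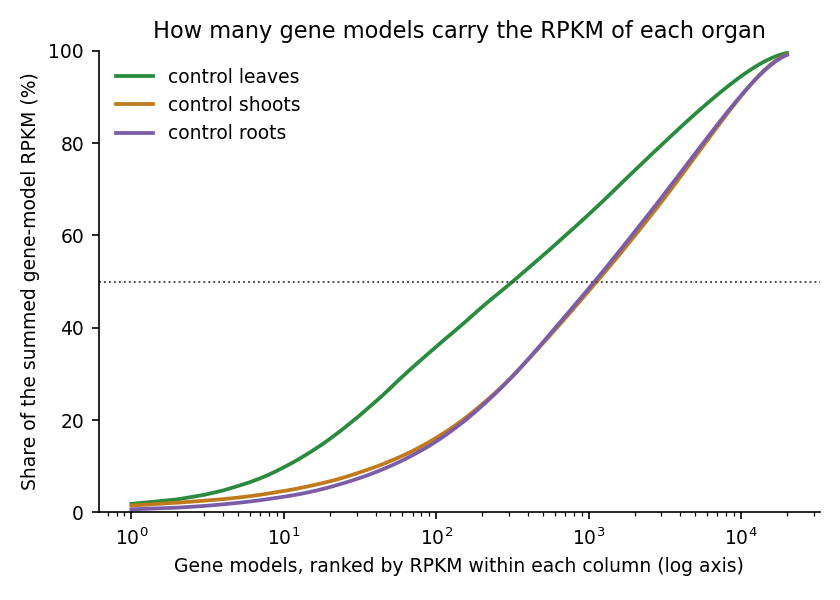
Share of the summed gene-model RPKM (%) held by the most abundant gene models, ranked within each column (log axis), in control leaves, control shoots and control roots; the dotted line marks 50%. The leaf curve crosses it at 317 gene models, and those of shoots and roots at 1130 and 1092.

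Of the 100 gene models most abundant in leaves, 93 had a value 2-fold or more above that of shoots, 55 of them at least 8-fold, and 1 was lower by that measure. Their median was 2747 RPKM in leaves, 361 in shoots and 32.5 in control roots. The 100 most abundant in shoots had a median of 385 RPKM in leaves, 1038 in shoots and 919 in roots, and 63 passed 2-fold on the lower side in leaves. Each list was ranked by the value of 1 organ, which by itself favours calls toward that organ. Over all gene models compared, 15.6% were 2-fold higher in leaves, 1.99% 8-fold higher and 32.2% 2-fold lower. The lists shared 25 gene models. The most abundant leaf transcripts were thus still substantial in the shoot sample, while roots held little of them. The gene models 8-fold higher in leaves carried 27.5% of the leaf sum and 2.61% of the shoot sum. Those 8-fold lower carried 0.312% of the leaf sum and 7.97% of the shoot sum. By the authors' values they were more in number but carried a smaller part of their organ's total. The order of the numbers turned under median-ratio scaling.

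The 8-fold groups differed in level. Gene models at least 8-fold higher in leaves had a median of 80.6 RPKM in leaves and 4.48 in shoots, with the middle part of the leaf values between 29.4 and 333 RPKM (quartiles). Gene models at least 8-fold lower had medians of 1.03 RPKM in leaves and 29.97 in shoots, with quartiles of 16.5 and 65.0 RPKM in shoots. By the authors' values, near-complete differences were few and more common on the shoot side. Of the 24006 gene models compared, 107 had at least 10 RPKM in leaves with under 1 RPKM in shoots. At least 10 RPKM in shoots with under 1 RPKM in leaves was found for 397. These counts were not repeated under another scaling, and the balance at 8-fold turned with median-ratio scaling.

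By the rule for unnamed gene models, the pair with the largest differences in each direction is given by identifier. Zm00001d028471 had 1188 RPKM in control leaves and 1.15 in control shoots (difference 9.11), and Zm00001d051194 had 1624 and 10.2 RPKM in the same columns (7.18). Zm00001d000506 had 0.747 RPKM in leaves and 472 in shoots (-8.08), and Zm00001d041645 had 3.46 and 651 RPKM in the same columns (-7.19). Zm00001d000506 was low in control roots as well, at 1.75 RPKM, whereas Zm00001d041645 stood at 558 RPKM there. In EBL seedlings these differences were 9.18, 7.38, -8.08 and -8.04, in the order of naming.

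Some gene models were singled out after their values were seen because each is the whole of a small count. Zm00001d021435 alone exceeded 10000 RPKM in leaves, with 18610 RPKM in leaves and 3771 in shoots (2.30, but 1.21 after quantile normalization). The 2 gene models above 5000 RPKM in shoots have consecutive identifiers. Zm00001d035684 had 3061 RPKM in leaves and 12767 in shoots (-2.06, with -1.45 under median-ratio scaling and -2.91 after quantile normalization), and Zm00001d035683 had 235 RPKM in leaves and 5279 in shoots (-4.48). The sources used here do not say how reads of near-identical copies were counted, and a split of reads between such neighbours was not tested. Both were also abundant in control roots, at 6011 and 3295 RPKM.

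Roots, which the choice of members did not use, stood within 2-fold of shoots for most gene models that were 8-fold lower in leaves. Of 757 gene models at least 8-fold lower in leaves and above 0 in roots, 559 were within 2-fold of shoots and not of leaves (73.8%), and 64 the reverse (8.45%). In roots 24 were at least 2-fold below both organs (3.17%). With the pseudocount of 1, roots cannot stand 2-fold below a leaf value under 1 RPKM. The leaf median of this class was 1.03 RPKM, so that share is held low by the rule itself. The class had a median of 21.4 RPKM in control roots. Of the 397 gene models with at least 10 RPKM in shoots and under 1 in leaves, 249 had at least 10 RPKM in roots (62.7%). Among all 12922 compared gene models with at least 10 RPKM in shoots, that share was higher, at 83.7%.

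Among gene models high in leaves the shares by place of the roots differed with the size of the difference. Of 475 that were at least 8-fold higher in leaves and above 0 in roots, 173 were within 2-fold of shoots and not of leaves in roots (36.4%), and 175 were at least 2-fold below both organs (36.8%). Those within 2-fold of leaves only numbered 34 (7.16%). Of the 30 at least 32-fold higher in leaves, 19 had roots within 2-fold of shoots only (63.3%) and 3 had roots at least 2-fold below both organs. With the pseudocount of 1, roots cannot stand 2-fold below a shoot value under 1 RPKM. The lower quartile of shoot values was 0.864 RPKM at 32-fold and 1.17 at 8-fold, so the rule itself limits the last share more at 32-fold. Of the 68 at least 32-fold lower, 43 had roots within 2-fold of shoots only (63.2%). The gene models at least 8-fold higher in leaves had a median of 2.74 RPKM in EBL roots and 5.04 in control roots. Of the 107 gene models with at least 10 RPKM in leaves and under 1 in shoots, 7 had at least 10 RPKM in control roots (6.54%). Among all 10224 compared gene models with at least 10 RPKM in leaves, that share was 77.7%. Among all 23902 gene models with a root value, 8.85% stood at least 2-fold below both organs and 36.3% within 2-fold of shoots only. These shares share the leaf and shoot values that define the classes, and no test of their difference was made.

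**Figure D4:**
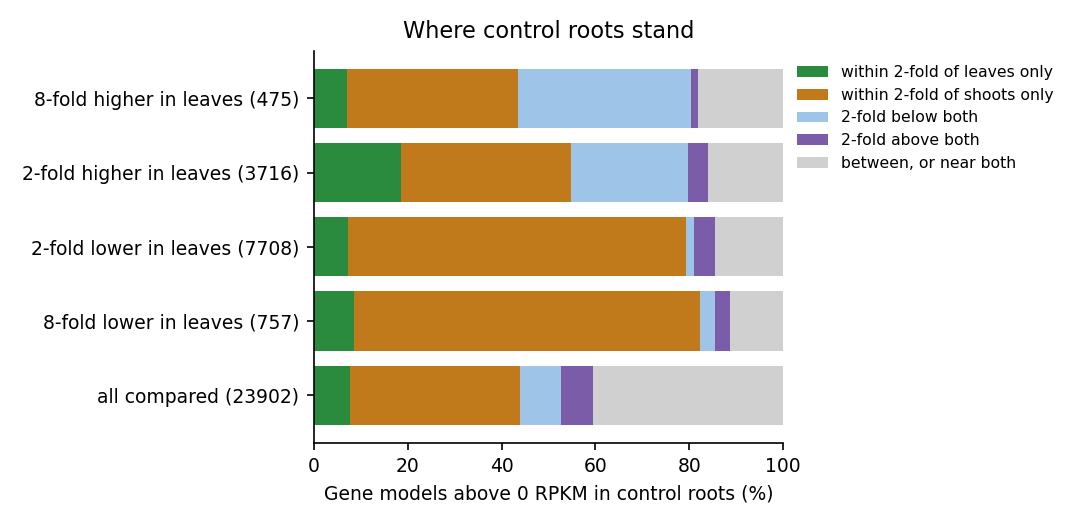
Place of the control root value for gene models by their difference between control leaves and control shoots, in percent of the gene models above 0 in roots (number in parentheses). Gene models lower in leaves have roots mostly within 2-fold of shoots only (73.8% at 8-fold), and those 8-fold higher in leaves have roots 2-fold below both organs in 36.8%.

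EBL-treated leaves and shoots came from other seedlings, so they measure the same organ difference again, under treatment. Of the 3704 gene models at least 2-fold higher in control leaves and above 0 in both EBL columns, 3695 were also higher in EBL leaves (99.8%), 3134 of them at least 2-fold (84.6%). Of 7695 at least 2-fold lower, 7619 were also lower in EBL leaves (99.0%), 6799 at least 2-fold (88.4%). All 473 compared from the 8-fold higher class were at least 2-fold higher, as were 755 of 758 from the 8-fold lower class in the other direction. In EBL seedlings themselves 17.8% of gene models were 2-fold higher and 35.0% lower in leaves. A turn of at least 2-fold to the opposite side was found for 1 gene model of the higher class and 7 of the lower. Across 23874 gene models, which share their columns and are not independent, Pearson's r between the control and the EBL difference was 0.946 and Spearman's rho 0.939.

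The organ difference was not identical under both conditions. It differed by at least 1 (log2) between control and EBL seedlings for 1284 of 23874 gene models (5.38%). For 173 of them the leaf-minus-shoot value was the higher one in controls, and for 1111 in EBL seedlings. The gene models summed to 1256993 RPKM in EBL leaves and 926022 in EBL shoots, beside 1006945 and 856063 in controls. This split was not repeated under another scaling, and an effect of EBL on the organ difference was not tested. Near the limit of membership the pseudocount of 1 keeps differences small. The 215 gene models whose larger value lay from 1 to 1.1 RPKM had a median difference of -0.34, with 3 of them past 2-fold. Another 277 just outside, from 0.9 to 1 RPKM, had a median of -0.16, with 0 past 2-fold. Under 1 RPKM no feature can reach 2-fold on this scale, and just above it hardly any can. These counts are thus largely set by the rule itself.

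Gene models listed at exactly 0 in one organ were few. In control leaves 145 were listed at 0 with at least 1 RPKM in shoots, and in control shoots 102 with at least 1 RPKM in leaves. Of the 145, 52 stood above 0 in EBL leaves, 15 of them at 1 RPKM or more; of the 102, 50 stood above 0 in EBL shoots, also 15 of them at 1 RPKM or more. Where the other organ reached 100 RPKM there were 3 such gene models, named here after their values were seen. Zm00001d046170 was listed at 0 in control leaves with 158 RPKM in control shoots, and had 3954 RPKM in EBL leaves and 92.7 in EBL shoots. Zm00001d038163 was listed at 0 in control leaves with 264 RPKM in control shoots, and had 3265 RPKM in EBL leaves and 182 in EBL shoots. In EBL leaves they ranked 52 and 63 among all gene models by RPKM. With a 0 in control leaves they are counted neither as higher nor as lower. Zm00001d018563 had 101 RPKM in control leaves and was listed at 0 in control shoots, with 121 RPKM in EBL leaves and 10.5 in EBL shoots.

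The 54 miRNA genes came from 21 families. In 29 of them both values were at least 0.05 RPKM. Of the others, 12 were listed at 0 in leaves and 8 in shoots, and 5 had a value above 0 but under 0.05 RPKM, which is as doubtful as a 0. Of the 29, 10 were at least 2-fold higher in leaves, 10 at least 2-fold lower and 9 within 2-fold, with a median difference of 0.65 beside -0.51 over all gene models. Of the 5 under 0.05 RPKM, 4 were so in leaves and 1 in shoots. The members left out were thus more often low in leaves, which raises the median of the 29. With features listed at 0 kept, 19 miRNA genes were higher and 26 lower. Counting all 34 with values above 0, 11 were higher (32.4%, with 15.6% for gene models) and 14 lower (41.2%, with 32.2% for gene models). These features are short, and an RPKM value of theirs may rest on fewer reads than an equal one of a gene model. Under median-ratio scaling 15 of the 29 were higher and 5 lower. In the RefSeq annotation of another build, 39 of the 54 lie over a long non-coding RNA gene, 8 over a protein-coding gene and 6 over no other feature. Overlaps were found by position alone, without regard to strand. Where a transcript overlaps on the same strand, its reads cannot be told from those of the precursor.

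The MIR156 family, whose miRNAs lower SPL transcription factors and hold plants in the juvenile phase, stood mostly higher in leaves. MIR156d had 59.2 RPKM in leaves and 23.3 in shoots (1.31), MIR156e 55.9 and 11.8 (2.15), and MIR156k 56.2 and 25.1 (1.13, or 0.91 with both organs set to the same gene-model total). MIR156e lies over a protein-coding gene, as MIR156j does. MIR156f went the other way, with 13.5 RPKM in leaves and 33.6 in shoots (-1.25, or -0.67 under median-ratio scaling). MIR156a was close in both, with 4.80 RPKM in leaves and 6.53 in shoots (-0.38, but 0.14 under median-ratio scaling). The members MIR156g, MIR156i and MIR156j had 8.12, 9.25 and 20.7 RPKM in leaves and were listed at 0 in shoots. Summed over its 8 members the family stood at 228 RPKM in leaves and 100.3 in shoots, and at 193 and 80.8 in EBL leaves and EBL shoots. MIR529, whose miRNAs share SPL targets with miR156, was listed at 0 in leaves and had 3.33 RPKM in shoots.

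MIR169 showed the widest difference of any miRNA gene. Its miRNAs lower NF-YA subunits of a CCAAT-binding transcription factor. MIR169i had 116 RPKM in leaves and 3.89 in shoots (4.58), and MIR169c had 116 RPKM in leaves and 38.8 in shoots (1.55). MIR169e had 18.6 and 6.55 RPKM in the same columns (1.38); it lies over a protein-coding gene, as MIR169c does, and over MIR169h. In EBL seedlings MIR169i was again far apart, with 136 RPKM in leaves and 4.18 in shoots, and MIR169c had 133 and 34.7 RPKM in those columns. MIR169a had 8.77 RPKM in leaves and was listed at 0 in shoots. MIR169b and MIR169r were under 3 RPKM and within 2-fold with the pseudocount of 1, though MIR169r stood at 1.40 with a pseudocount of 0.1. MIR169j was under 0.05 RPKM in leaves with 1.502 RPKM in shoots. The 7 members summed to 264 RPKM in leaves and 52.8 in shoots.

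MIR164, MIR166 and MIR394, families whose miRNAs in Arabidopsis act at organ boundaries, in leaf polarity and in the meristem, had higher values in shoots. MIR164b, whose miRNA lowers NAC transcription factors of the organ boundary, had 53.6 RPKM in leaves and 292 in shoots (-2.42), and was the most abundant miRNA gene of the shoot column. MIR164d had under 0.05 RPKM in leaves and 1.76 in shoots, and MIR164g was listed at 0 in leaves with 1.44 RPKM in shoots. MIR166 miRNAs lower class III homeodomain-leucine zipper genes, which set the upper side of the leaf. MIR166a had 0.560 RPKM in leaves and 5.25 in shoots (-2.00), MIR166j 3.40 and 7.93 (-1.02, but -0.52 under median-ratio scaling), and MIR166d was listed at 0 in leaves with 6.31 RPKM in shoots. MIR394b, whose Arabidopsis counterpart acts in the shoot meristem through an F-box target, had 1.64 RPKM in leaves and 7.71 in shoots (-1.72), and MIR394a was listed at 0 in leaves with 1.24 in shoots. All 8 members of these 3 families thus had the lower value in leaves, though only 4 of them stood at 0.05 RPKM or more in both organs. In EBL seedlings MIR164d had the higher value in leaves, with 2.26 RPKM against 1.19 in shoots, while MIR394a was listed at 0 in both. These families were grouped after their values were seen, and MIR171, another family with meristem targets, did not share the pattern.

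MIR171 members, whose miRNAs lower GRAS factors of the meristem, did not move together. MIR171d had 38.4 RPKM in leaves and 5.64 in shoots (2.57), but 13.9 RPKM in leaves and 32.4 in shoots of EBL seedlings (-1.16). MIR171f had 7.84 RPKM in leaves and 20.9 in shoots (-1.31, or -0.75 under median-ratio scaling). MIR171e and MIR171j were within 2-fold with the pseudocount of 1, at 1.74 and 2.15 RPKM in leaves and 4.14 and 1.49 in shoots. With a pseudocount of 0.1, MIR171e stood at -1.20. MIR171m was listed at 0 in control leaves with 15.4 RPKM in control shoots, and in EBL seedlings had 38.6 RPKM in leaves and was listed at 0 in shoots. The family's sum was nearly equal, at 50.1 RPKM in leaves and 47.6 in shoots.

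Families that act on auxin signalling were split. MIR393a, whose miRNA lowers the TIR1 class of auxin receptors, had 14.8 RPKM in leaves and 1.68 in shoots (2.55). MIR160 and MIR167 miRNAs lower different auxin response factors. MIR160b had 3.76 RPKM in leaves and 12.1 in shoots (-1.45, or -0.93 under median-ratio scaling). In EBL seedlings it turned, with 13.8 RPKM in leaves and 0.000517 in shoots, a value as doubtful as a 0. MIR160c and MIR160d were listed at 0 in leaves with 18.1 and 12.1 RPKM in shoots. MIR167e had 6.42 RPKM in leaves and 1.95 in shoots (1.33), MIR167g 2.36 and 0.696 (0.99), and MIR167d was listed at 0 in leaves with 1.48 in shoots. In control seedlings MIR393a and the sum of the MIR167 members were higher in leaves, and the sum of the MIR160 members was higher in shoots, at 3.76 RPKM in leaves and 42.2 in shoots. In EBL seedlings the MIR160 sum was 13.8 RPKM in leaves and 10.8 in shoots.

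MIR396, MIR159 and MIR319 miRNAs lower growth-regulating factors, GAMYB-like MYB factors and TCP factors, which set growth and its end. MIR396c had 9.26 RPKM in leaves and 69.8 in shoots (-2.79), and lies over a protein-coding gene, as MIR396d does. MIR396a had 57.1 RPKM in leaves and 35.9 in shoots (0.65, but 1.25 under median-ratio scaling). MIR396b and MIR396d were listed at 0 in leaves with 6.22 and 4.44 RPKM in shoots, and MIR396e was at 0.000181 RPKM in leaves and 3.40 in shoots. The MIR396 members thus included some on each side. MIR159a had 12.0 RPKM in leaves and 47.4 in shoots (-1.90), and stood at 7.11 and 46.9 RPKM in EBL leaves and EBL shoots. MIR159f had 2.43 RPKM in leaves and 0.0224 in shoots, but 4.08 and 5.56 RPKM in EBL leaves and EBL shoots. MIR319d was listed at 0 in leaves with 1.86 RPKM in shoots.

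The families that answer to copper supply all had the higher value in leaves. Their miRNAs lower copper proteins: laccases for miR397, copper superoxide dismutases for miR398, and plantacyanins and laccases for miR408, while miR528 is a grass family with copper-protein targets. MIR397a had 76.3 RPKM in leaves and 43.9 in shoots (0.78, and 1.38 under median-ratio scaling), and it lies over a protein-coding gene. MIR408b had 29.4 RPKM in leaves and 4.36 in shoots (2.50), and MIR528a had 11.8 and 5.73 (0.92, and 1.46 under median-ratio scaling). MIR398b had 19.2 RPKM in leaves and was listed at 0 in shoots. By the authors' values only MIR408b of these 4 passed 2-fold. In EBL seedlings each again had the higher value in leaves, and the 4 summed to 173 RPKM in leaves and 40.3 in shoots, beside 137 and 54.0 in control leaves and control shoots. The set was formed after the values were seen.

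**Figure D5:**
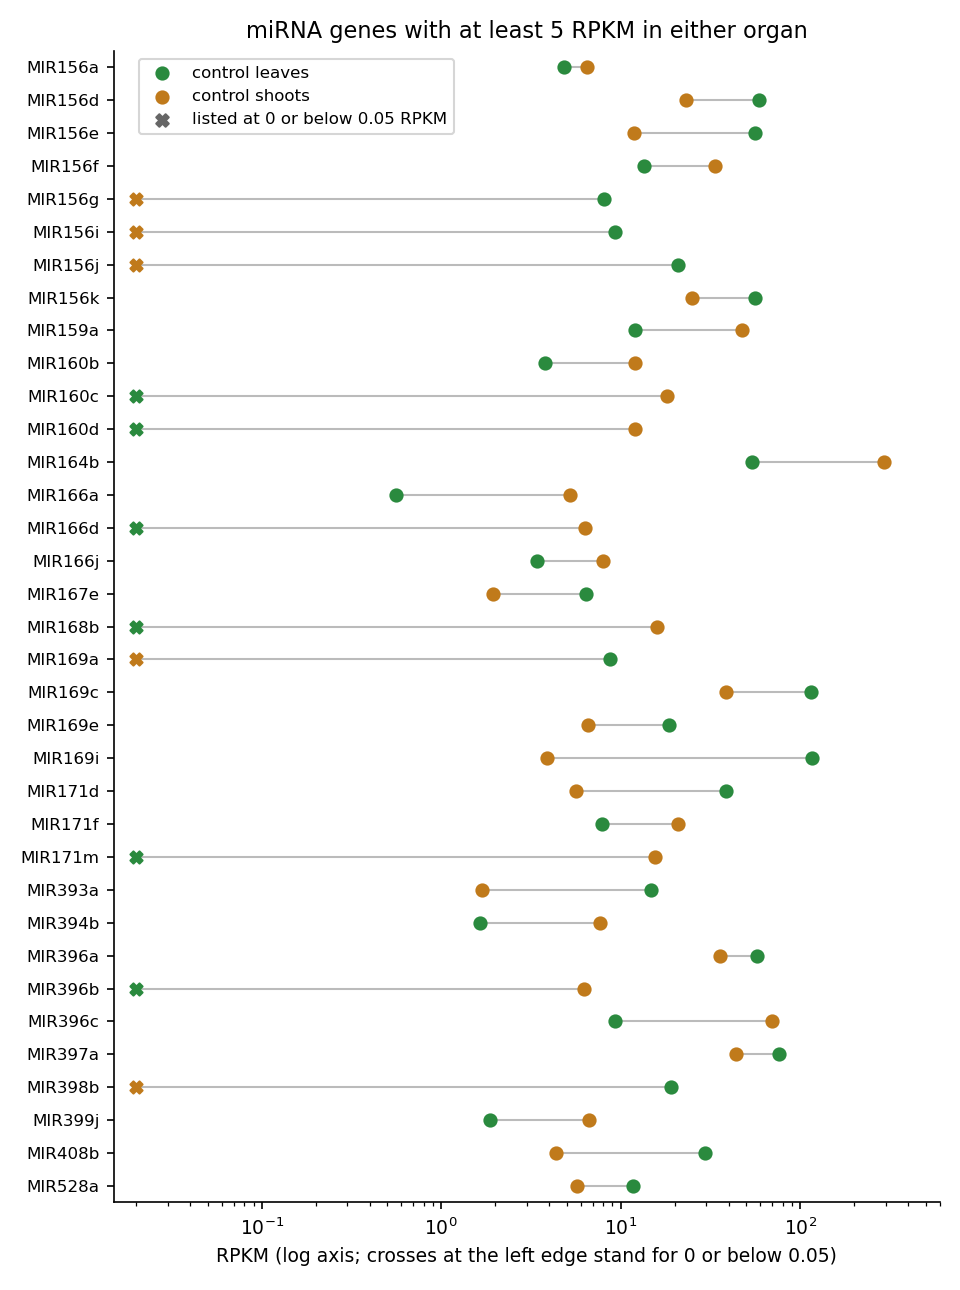
RPKM (log axis) of the 35 miRNA genes with at least 5 RPKM in control leaves or control shoots, 1 value per organ, ordered by family; crosses stand for a value listed at 0 or under 0.05 RPKM. MIR169i, at 116 RPKM in leaves and 3.89 in shoots, has the widest measured gap, and MIR164b the highest shoot value, at 292 RPKM.

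The remaining miRNA genes were low or doubtful. MIR168 and MIR162 miRNAs lower ARGONAUTE1 and DICER-LIKE1, parts of the miRNA machinery itself. MIR168b was listed at 0 in control leaves with 15.9 RPKM in control shoots, but had 74.95 RPKM in EBL leaves and 8.08 in EBL shoots. MIR168a had 3.83 RPKM in leaves and was listed at 0 in shoots, and MIR162 had 0.0247 RPKM in leaves and 1.38 in shoots. MIR399j, of the phosphate starvation family, had 1.86 RPKM in leaves and 6.62 in shoots (-1.41, or -0.95 under median-ratio scaling). MIR2118b and MIR2118c, of a family that sets off secondary small RNAs in grass flowers, had 2.18 and 1.57 RPKM in leaves and were listed at 0 in shoots. MIR2118b lies over a protein-coding gene.

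Most called miRNA genes kept their side in the EBL columns. Of the 20 that were 2-fold apart with both values at 0.05 RPKM or more, 18 had a value above 0 in both EBL columns, and 16 of these lay on the same side, 14 of them at least 2-fold. MIR156e was listed at 0 in EBL shoots and MIR396c in EBL leaves. MIR160b and MIR171d were on the opposite side.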

How the data were processed

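The authors deposited RPKM values, 1 for each feature in each organ and treatment, per the file headers. The sources used here do not say how the 3 replicates of a group were joined or whether libraries were scaled to each other. CASAVA 1.8, Trimmomatic 0.33, TopHat2 2.0.13, Cufflinks 2.2.1 and the build B73 RefGen_v4 are named, with no role, in the submitters' processing notes. Stranded libraries were made from TRIzol-extracted, DNase-treated RNA, per the labels' protocols. Depth is unknown, and scaling by a column's total makes each value depend on the other features.

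From these values the log2 ratio was computed with a pseudocount of 1, in Python 3.11.15 (scipy 1.17.1, numpy 2.4.6, matplotlib 3.10.9, pandas 2.3.3). On simulated data with known folds the rule of size was tested first. The planned limma test needs replicate columns and was replaced by the planned size rule. Alternatives were pseudocounts of 0.1 and 2, other minimum levels, 3 rescalings, features at 0 kept, and the EBL columns; a rule for values under 0.05 RPKM and a rescaling without the 100 most abundant gene models were added after the data were seen.

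Members and lists were chosen with earlier results of these data known. Named were every miRNA gene and, for gene models without a symbol, the 2 highest and 2 lowest differences with a mean of at least 5 RPKM. Symbols came from RefSeq's gene table for Zm-B73-REFERENCE-NAM-5.0, which matched 153 of the 154 miRNA genes and 0 gene models, so the 28 planned gene lists had no members and gave no result, and no coordinates or sequences are given.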

Additional observations from a re-analysis of the deposited data

Results flagged for a closer look

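For 2 miRNA genes the leaf-minus-shoot difference was at least 2-fold in control and in EBL-treated seedlings, in opposite directions. With 1 value per group, the difference between the conditions was not tested. MIR171d stood at 2.57 (log2) in control seedlings and at -1.16 in EBL seedlings, where it had 13.9 RPKM in leaves and 32.4 in shoots. MIR160b stood at -1.45 in control seedlings and at 3.89 in EBL seedlings, where it had 13.8 RPKM in leaves and 0.000517 in shoots, a value as doubtful as a listing at 0.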

How the results depend on the processing

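Counts of gene models depended on the scaling and, at 8-fold, on the pseudocount. Under median-ratio scaling 5699 gene models were at least 2-fold higher and 4477 lower, and 828 and 456 at 8-fold; quantile normalization gave 5069 lower. Setting both organs to the same gene-model total gave 3189 higher and 9445 lower, so gene models higher in leaves were 25.2% of those called, and 50.6% after quantile normalization. The median difference of the gene models ranged from -0.71 to 0.00 over these scalings. A pseudocount of 0.1 gave 925 higher and 1645 lower at 8-fold, and 2 gave 456 lower at 8-fold. The minimum level, the EBL columns and the rule for values under 0.05 RPKM kept the counts of gene models within 1.5 times. The shares that compare roots with shoots, and control with EBL seedlings, moved by less than 10 percentage points under every alternative run.

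Of the miRNA genes, 9 were lower under median-ratio scaling and 9 after quantile normalization, and with features listed at 0 kept 19 were higher and 26 lower. With a pseudocount of 0.1, MIR167g (1.63), MIR169r (1.40), MIR171e (-1.20) and MIR528a (1.02) also passed 2-fold. A pseudocount of 2 brought 4 called miRNA genes under 2-fold. MIR156a changed sign, to 0.14 under median-ratio scaling, 0.15 after quantile normalization and 0.82 in the EBL columns. Also in the EBL columns, MIR159f stood at -0.37, MIR160b at 3.89, MIR164d at 0.57 and MIR171d at -1.16. The cause was not tested. Leaving out each replicate was not run, since each group has a single value. No paired analysis was possible because the columns carry no replicate numbers. Without depth, differences of short or low features cannot be given an error.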

Other observations

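Gene models with neighbouring identifier numbers shared the large differences more often than other gene models had such a neighbour. Of 371 gene models at least 8-fold higher in leaves that had a compared gene model 1 number before or after, 24 had one of the same class (6.47%), against 481 of 18037 other gene models (2.67%). On the shoot side it was 52 of 588 gene models at least 8-fold lower in leaves (8.84%), against 760 of 17820 others (4.26%). At 2-fold the shares were 26.7% of those higher in leaves and 19.2% of the others, and 43.3% of those lower in leaves and 39.0% of the others. No test was made of these shares, and reads split between near-identical neighbouring copies were not tested as a source.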
